A study of Mus musculus with 10 samples.

Results

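Receptors for the Fc part of antibodies and the adaptors that carry their signal were examined in nonclassical monocytes, the patrolling monocyte subset, from mice with and without the inhibitory receptor LAIR1. The 8 genes are the activating IgG receptors Fcgr1, Fcgr3 and Fcgr4, the inhibitory IgG receptor Fcgr2b, the neonatal Fc receptor Fcgrt, the ITAM adaptors Fcer1g and Tyrobp, and the kinase Syk. They were chosen by name, and all 8 of 8 were found among the 52636 genes of the count table and passed the filter on low counts, which 13469 genes passed. Bulk RNA sequencing was available for 5 LAIR1KO libraries, from LAIR1-/- mice, and for 5 WT libraries, from LAIR1+/+ mice. The cells of both groups were sorted from bone marrow, with a stated purity of 98% and 5000 to 10000 cells per sample, and neither group was treated. The sources used here give no age, sex, strain, way of making the LAIR1 allele or markers of the sort. Nor do they tie each library to its own animal, so the tests below weigh a difference against the spread between libraries, which may be technical.

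In mice an activating Fc receptor binds the antibody with its own chain and signals through the Fc receptor gamma chain, the product of Fcer1g, whose cytoplasmic tail holds an immunoreceptor tyrosine-based activation motif (ITAM). Src family kinases phosphorylate the ITAM, and Syk binds to it and passes the signal on. Tyrobp encodes DAP12, a second ITAM adaptor, which serves other myeloid receptors. Fcgr2b carries an inhibitory motif (ITIM) of its own, through which it dampens the activating receptors, and LAIR1 is likewise an ITIM receptor, one that binds collagen. Fcgrt encodes the heavy chain of FcRn, which recycles IgG and albumin inside the cell and pairs with beta-2 microglobulin.

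Fcgr1 fell to 50.5% of the WT level in LAIR1KO, and Fcer1g and Fcgr2b fell to 65.8% and 69.0% (edgeR fit over all genes). The other 5 did not pass the threshold of an adjusted p of 0.05, and 0 of 8 were higher with edgeR or DESeq2. At an unadjusted p of 0.05, 7 of 8 were lower and 0 higher, against 8.92% and 12.9% of all tested genes. The 3 of 8 genes that passed were all lower in LAIR1KO, in a comparison in which 6.79% of all tested genes passed, 1.68% as lower and 5.11% as higher. DESeq2 called 4 of 8 lower, Tyrobp being the fourth, and 3.86% of all genes it tested as lower and 7.62% as higher. In the same 3 genes every LAIR1KO library lay below every WT library, which held for 2.06% of all tested genes, while 5.61% had every LAIR1KO library above every WT library. The log2 fold change was negative for all 8 genes (median -0.49), while 50.3% of all tested genes were below 0 and their median was 0.00. Of these calls that of Fcgr1 held in all 23 other settings tried, that of Fcgr2b in 18 and that of Fcer1g in 14.

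The start regions of the 3 genes that fell were searched for the letters of STAT and ETS sites. Each region is 300 bases long, 250 before and 50 after a transcript start in RefSeq on GRCm38.p6, written 5′ to 3′ on the strand of the gene. For Fcgr2b and Fcer1g that start lies inside the gene bounds given further on. Capitals mark matches on either strand to TTCNNNGAA, the letters of a STAT site, or to GAGGAA, the letters of an ETS site of the PU.1 kind. The regions are chr3:96293920-96294219 for Fcgr1, chr1:170976022-170976321 for Fcgr2b and chr1:171234300-171234599 for Fcer1g, all on the minus strand.
Fcgr1: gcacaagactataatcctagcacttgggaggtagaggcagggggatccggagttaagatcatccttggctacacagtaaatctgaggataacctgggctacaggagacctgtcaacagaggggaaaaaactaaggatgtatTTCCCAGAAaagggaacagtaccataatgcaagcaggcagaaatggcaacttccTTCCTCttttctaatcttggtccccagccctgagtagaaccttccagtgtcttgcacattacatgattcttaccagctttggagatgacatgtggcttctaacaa
Fcgr2b: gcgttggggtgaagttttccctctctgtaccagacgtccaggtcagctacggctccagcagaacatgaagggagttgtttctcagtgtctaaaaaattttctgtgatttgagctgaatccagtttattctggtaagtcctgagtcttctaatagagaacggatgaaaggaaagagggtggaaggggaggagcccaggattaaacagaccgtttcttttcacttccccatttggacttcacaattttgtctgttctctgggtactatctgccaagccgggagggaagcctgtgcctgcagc
Fcer1g: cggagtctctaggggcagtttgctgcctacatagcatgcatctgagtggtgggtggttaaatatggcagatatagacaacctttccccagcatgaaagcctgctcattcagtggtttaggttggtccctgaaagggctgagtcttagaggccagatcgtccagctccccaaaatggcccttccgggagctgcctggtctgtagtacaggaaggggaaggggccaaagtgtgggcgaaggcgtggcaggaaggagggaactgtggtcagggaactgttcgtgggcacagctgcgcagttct
The Fcgr1 region held 1 STAT match, which begins 109 bases upstream of the start, and 1 ETS match, which lies on the opposite strand and begins 55 bases upstream. The regions of Fcgr2b and Fcer1g held neither string of letters. Among 32851 start regions of the same length, 8.30% held a STAT match and 28.3% an ETS match. The region of Fcgr4, and both overlapping regions listed for Fcgr3, held 1 ETS match each and no STAT match, as did 1 of the 2 regions listed for Syk, whose match begins 9 bases upstream. None of these 3 genes passed the test. A match is a string of letters, not evidence of binding, and its bearing on the fold changes was not tested.

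The libraries held 12106209 to 15356924 counts each. Lair1 marked the genotypes: it stood at 0.226 ± 0.276 CPM in LAIR1KO and 374 ± 27.7 CPM in WT (SD, n = 5 each; CPM, counts scaled to a common library size by TMM). Marker lists describe the RNA level of cell type markers in each group and do not measure the purity of the sort. The 12 nonclassical monocyte markers were all tested, and 0 passed with edgeR. At an unadjusted p of 0.05, 4 were lower, against 8.92% of all tested genes. DESeq2 called 1 lower, against 3.86% of all genes it tested. All 12 had log2 fold changes below 0 (median -0.25), against 50.3% of all tested genes. Their summed level ran from 6655 to 10116 CPM in LAIR1KO and from 9103 to 10431 CPM in WT. All 8 myeloid progenitor markers were higher in LAIR1KO (summed level 3184 to 6712 CPM, against 524 to 1393 CPM in WT), with the highest sums, 5374 and 6712 CPM, in LAIR1KO replicates 4 and 5. Of 11 tested resident macrophage markers 8 were lower in LAIR1KO with edgeR (summed level of the 13 listed 879 to 1098 CPM, against 1592 to 2137 CPM in WT). DESeq2 called 10 of them lower, and at an unadjusted p of 0.05 10 were lower and 1 higher. All these marker counts stand against 1.68% of all tested genes lower and 5.11% higher with edgeR. The shares were 3.86% and 7.62% with DESeq2, and 8.92% and 12.9% at an unadjusted p of 0.05. B cell (906 to 1365 CPM in LAIR1KO and 949 to 1412 CPM in WT) and neutrophil markers (1360 to 1921 CPM in LAIR1KO and 886 to 2353 CPM in WT) had 0 members past the threshold with edgeR or DESeq2. At an unadjusted p of 0.05, 1 B cell marker was lower and 1 neutrophil marker was higher. Classical monocyte markers had 2 of 7 higher and 0 lower with edgeR (978 to 1390 CPM in LAIR1KO and 687 to 1246 CPM in WT). For these DESeq2 called 2 higher and 1 lower, and 3 were higher and 1 lower at an unadjusted p of 0.05. Dendritic cell markers had 1 of 9 higher and 3 lower with edgeR or DESeq2 (846 to 1044 CPM in LAIR1KO and 780 to 1086 CPM in WT). At an unadjusted p of 0.05, 1 was higher and 5 lower. Of 12 NK and T cell markers 9 stayed under 1 CPM in every library, and 1 of the 2 tested was higher (23.4 to 51.4 CPM in LAIR1KO and 11.7 to 27.6 CPM in WT). The 6 tested basophil and mast cell markers had 0 past the threshold with edgeR, 2 with DESeq2 and 4 at an unadjusted p of 0.05 (39.5 to 88.8 CPM in LAIR1KO and 9.68 to 88.3 CPM in WT). The most abundant marker of its list averaged 1415 CPM in LAIR1KO and 1544 CPM in WT for nonclassical monocytes (Itgal), 3401 and 518 CPM in the same groups for progenitors (Mpo), and 716 and 912 CPM for macrophages (Adgre1). For classical monocytes it was Ccr2, at 423 CPM in LAIR1KO and 648 CPM in WT (log2 fold change -0.62, edgeR adjusted p = 0.0588). The most abundant was Csf3r for neutrophils, Ighm for B cells, Nkg7 for NK and T cells, Hdc for basophils and mast cells, and Irf8 for dendritic cells. No marker was at 0 in every library. In these bulk samples fewer cells of a type and less RNA per cell cannot be told apart.

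Levels were compared between the 8 genes in CPM per kilobase of all annotated exons, so the height of each gene depends on that length. Fcer1g stood above the 3 activating IgG receptors that signal through it, and Fcgr1 was the lowest of the 8 in both genotypes. Fcer1g was at 2259 ± 566 in LAIR1KO and 3435 ± 264 CPM per kilobase in WT (SD, n = 5 each). Tyrobp followed with 1805 ± 468 in LAIR1KO and 2604 ± 231 CPM per kilobase in WT. Among the IgG receptors the order was Fcgr4, Fcgr3, Fcgr2b and Fcgr1 in both groups: Fcgr4 at 544 ± 151 in LAIR1KO and 728 ± 103 CPM per kilobase in WT, and Fcgr1 at 11.9 ± 1.95 and 23.6 ± 1.59 CPM per kilobase in the same groups. Fcgrt, at 205 ± 59.3 in LAIR1KO and 280 ± 29.1 CPM per kilobase in WT, lay between Fcgr3 and Fcgr2b. The ranges of Fcgr2b (49.3 ± 6.29 in LAIR1KO and 71.5 ± 11.3 in WT) and Syk (48.8 ± 8.25 and 59.0 ± 7.20) overlapped in both genotypes. In LAIR1KO the ranges of Fcer1g and Tyrobp, and those of Fcgr4 and Fcgr3, also overlapped, although the first gene of each pair was the higher one in 5 of 5 libraries.

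**Figure D1:**
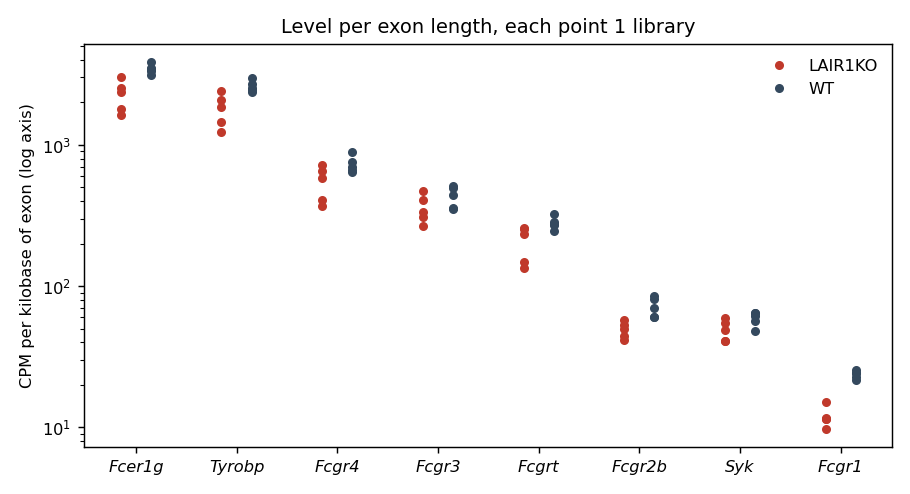
Level of each gene in CPM per kilobase of exon on a log axis, 1 point per library, with LAIR1KO left of WT for each gene. Fcer1g and Tyrobp lie highest and Fcgr1 lowest in both genotypes, and the points of Fcgr2b and Syk overlap.

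Fcgr1 encodes the high-affinity IgG receptor, FcγRI or CD64 (ENSMUSG00000015947, GRCm38 chromosome 3, 96282909 to 96293969, minus strand). It stood at 29.7, 39.1, 29.8, 25.4 and 30.0 CPM in LAIR1KO replicates 1 to 5, against 58.4, 62.3, 55.6, 66.1 and 62.9 CPM in WT replicates 1 to 5. The groups were far apart: the highest LAIR1KO library, replicate 2, lay well below the lowest WT library, replicate 3. In log2 terms Fcgr1 differed by -0.99 ± 0.12 (SE; edgeR adjusted p = 6.61e-04), and 1.60% of all tested genes had a lower one. Without LAIR1KO replicates 4 and 5 it was -0.89 (edgeR adjusted p = 0.00779), and without WT replicates 1 and 4 it was -0.97 (edgeR adjusted p = 0.0117). As CD64, Fcgr1 is also used as a marker of macrophages, and 8 of the 11 tested macrophage markers above were lower in LAIR1KO too. The part of macrophages in the result was not tested. Within the genotypes the deviations of Fcgr1 from the group mean did not follow those of the summed macrophage (r = -0.08), nonclassical (r = 0.00) or progenitor markers (r = -0.01, Pearson, 10 libraries, log2 scale, a description). Such deviations leave out the difference between the genotypes, so they cannot tell what part these cells had in it.

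Fcgr3 encodes the low-affinity activating receptor FcγRIII (ENSMUSG00000059498, GRCm38 chromosome 1, 171051174 to 171064935, minus strand). It was at 812, 536, 707, 579 and 462 CPM in LAIR1KO replicates 1 to 5, against 767, 621, 611, 885 and 855 CPM in WT replicates 1 to 5. The groups overlapped, with LAIR1KO replicates 1 and 3 inside the range of WT. The log2 fold change of -0.27 ± 0.16 did not pass (edgeR adjusted p = 0.348), and 2 SE either side span -0.59 to 0.04. It was -0.13 without LAIR1KO replicates 4 and 5 and -0.17 without WT replicates 1 and 4.

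Fcgr4 encodes FcγRIV, the activating receptor that marks nonclassical monocytes in mice (ENSMUSG00000059089, GRCm38 chromosome 1, 171018920 to 171029761, plus strand). Its values were 820, 726, 898, 512 and 463 CPM in LAIR1KO replicates 1 to 5, against 869, 801, 830, 952 and 1123 CPM in WT replicates 1 to 5. LAIR1KO replicates 4 and 5 were the lowest of all 10 libraries, while replicates 1 and 3 lay within the range of WT. Its log2 fold change of -0.42 ± 0.17 did not pass (edgeR adjusted p = 0.180; -0.77 to -0.07 at 2 SE), and without LAIR1KO replicates 4 and 5 it was -0.17.

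Fcgr2b, the only inhibitory IgG receptor of the mouse (ENSMUSG00000026656, GRCm38 chromosome 1, 170958617 to 170976547, minus strand), lies in the same gene cluster as Fcgr3 and Fcgr4. It was at 332, 306, 290, 259 and 241 CPM in LAIR1KO replicates 1 to 5, against 492, 350, 350, 468 and 408 CPM in WT replicates 1 to 5. The groups did not overlap, but the gap between the highest LAIR1KO and the lowest WT library was small next to the spread within WT, where replicates 1 and 4 were highest. Fcgr2b differed by -0.54 ± 0.12 on the log2 scale (SE; edgeR adjusted p = 0.0205). Leaving out LAIR1KO replicate 4, WT replicate 1 or WT replicate 4 ended the call (edgeR adjusted p = 0.0573, 0.0533 and 0.0523), and the fold change was -0.37 without both of these WT libraries (edgeR adjusted p = 0.153). Fcgr2b is also the Fc receptor of B cells, whose part in this result was not tested. The summed B cell markers given above overlapped between the groups, but most of that sum was Ighm (865 to 1332 CPM in LAIR1KO and 905 to 1343 CPM in WT). Of the 7 tested B cell markers 6 had log2 fold changes below 0 (median -0.28), against 50.3% of all tested genes.

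Reads of Fcgr2b and Fcgr3 could in part be assigned to either gene, or for Fcgr2b to others. Of the stretches of 50 bases in coding transcripts of Fcgr3, 10.2% also occurred in Fcgr2b, and 4.48% of those of Fcgr2b in Fcgr3. With any other gene Fcgr2b shared 10.7% of its stretches, while Fcgr1, Fcgr4, Fcgrt, Fcer1g, Tyrobp and Syk shared 0 with any other gene. An antisense gene, Gm38204, overlapped 2.68% of the exon bases of Fcgr2b and had at most 2 counts in a library.

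**Figure D2:**
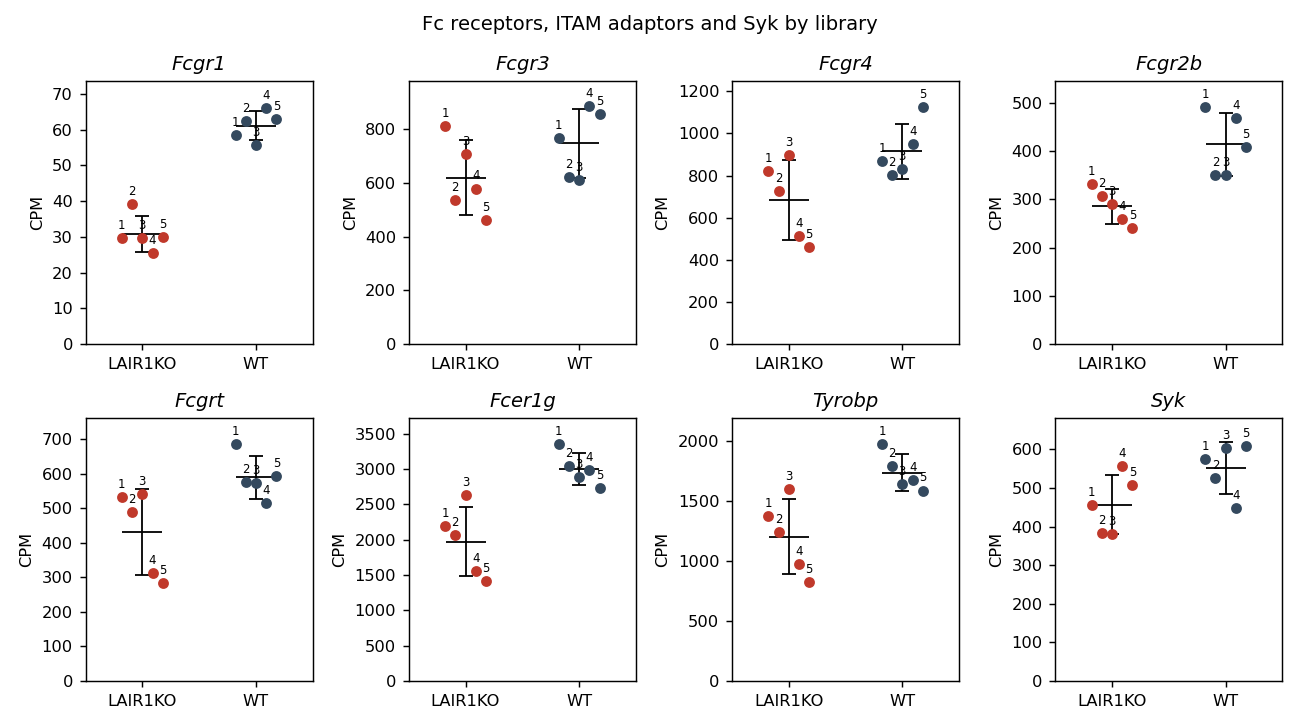
Level of the 8 genes in CPM, 1 point per library numbered by replicate, with LAIR1KO left of WT and the mean ± SD as black bars. Fcgr1, Fcgr2b and Fcer1g show no overlap between the groups, and LAIR1KO replicates 4 and 5 are the lowest points for Fcgr4, Fcgr2b, Fcgrt, Fcer1g and Tyrobp but the highest LAIR1KO points for Syk.

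Whether activating and inhibitory receptors moved apart was asked with the ratio of each activating receptor to Fcgr2b within a library, a value that library scaling does not touch. Fcgr1 was lower relative to Fcgr2b in LAIR1KO, Fcgr3 was somewhat higher and Fcgr4 was close to level, and none of the 3 differences passed once adjusted over the 3 ratios. The ratio of Fcgr1 to Fcgr2b was 0.200, 0.287, 0.231, 0.220 and 0.279 in LAIR1KO replicates 1 to 5, against 0.266, 0.398, 0.355, 0.316 and 0.345 in WT replicates 1 to 5. Only WT replicate 1, which had the most Fcgr2b, fell inside the range of LAIR1KO. The log2 difference was -0.47 ± 0.14 (SE; two-sided exact permutation p = 0.0238, adjusted over the 3 ratios 0.0714; n = 5 each, smallest possible p 0.00794).

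The ratio of Fcgr3 to Fcgr2b was 8.15, 5.85, 8.15, 7.45 and 6.39 in LAIR1KO replicates 1 to 5, against 5.20, 5.91, 5.82, 6.30 and 6.98 in WT replicates 1 to 5. LAIR1KO replicates 1, 3 and 4 were above every WT library and the other 2 were inside their range (log2 difference 0.25 ± 0.12, two-sided exact permutation p = 0.0714, adjusted over the 3 ratios 0.107). With 1 library left out the exact permutation p, not adjusted over the 3 ratios, ran from 0.0317 to 0.143. It was under 0.05 only without LAIR1KO replicate 2, where the difference was 0.32. For Fcgr4 to Fcgr2b the ratio was 10.9 ± 2.19 in LAIR1KO and 10.3 ± 1.70 in WT (SD, n = 5 each; log2 difference 0.07 ± 0.16, two-sided exact permutation p = 0.667). Its direction turned when LAIR1KO replicate 3 or WT replicate 1 was left out. The 3 activating receptors together stood at 18.4 ± 2.86 times Fcgr2b in LAIR1KO and 16.7 ± 2.30 times in WT, with overlapping ranges of 15.5 to 22.7 and 13.6 to 20.0. Fcgr3 and Fcgr4 make up nearly all of that sum, so it did not show the fall of Fcgr1. The ratios use the length of all annotated exons of each gene, which sets their height but not the difference between genotypes of a ratio of 2 genes.

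**Figure D3:**
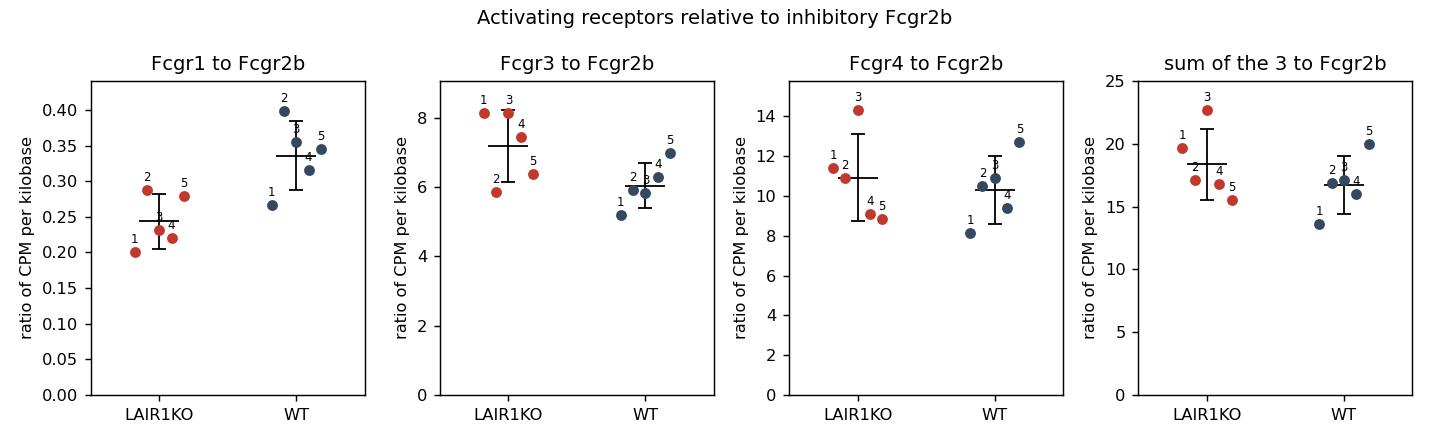
Ratio of each activating receptor, and of the sum of the 3, to Fcgr2b in CPM per kilobase, 1 point per library numbered by replicate, with LAIR1KO left of WT and the mean ± SD as black bars. The groups overlap in all 4 panels, and only WT replicate 1 lies within the LAIR1KO range for Fcgr1.

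Fcgrt, the heavy chain of FcRn (ENSMUSG00000003420, GRCm38 chromosome 7, 45092990 to 45103851, minus strand), had 533, 490, 540, 311 and 282 CPM in LAIR1KO replicates 1 to 5, against 685, 576, 573, 516 and 594 CPM in WT replicates 1 to 5. LAIR1KO replicates 4 and 5 were far below the rest, and replicates 1 and 3 were within the range of WT. The log2 fold change of -0.45 ± 0.18 did not pass (edgeR adjusted p = 0.154; -0.80 to -0.10 at 2 SE), and it was -0.18 without LAIR1KO replicates 4 and 5. Its partner chain B2m, named here after its values were seen, was at 3758 to 6441 CPM in LAIR1KO and 5874 to 7454 CPM in WT (log2 fold change -0.49 ± 0.14, edgeR adjusted p = 0.0503). Fcgrt and Tyrobp lie on the chromosome of Lair1, 41.1 and 26.4 Mb from it.

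Fcer1g (ENSMUSG00000058715, GRCm38 chromosome 1, 171229572 to 171234365, minus strand) fell. It had 2194, 2063, 2638, 1556 and 1419 CPM in LAIR1KO replicates 1 to 5, against 3355, 3045, 2891, 2988 and 2731 CPM in WT replicates 1 to 5. The groups did not overlap, and the spread was wider in LAIR1KO, where replicate 3 came close to WT and replicates 4 and 5 were lowest. Fcer1g differed by -0.60 ± 0.15 on the log2 scale (SE; edgeR adjusted p = 0.0298). Leaving out 1 library ended the call in 7 of 10 cases, those without LAIR1KO replicate 2, 4 or 5 or WT replicate 1, 2, 3 or 4 (edgeR adjusted p up to 0.0763). Without LAIR1KO replicates 4 and 5 the fold change was -0.39 (edgeR adjusted p = 0.0634).

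Tyrobp, which encodes DAP12 (ENSMUSG00000030579, GRCm38 chromosome 7, 30413760 to 30417585, plus strand), varied nearly in step with Fcer1g across libraries. It had 1378, 1243, 1604, 974 and 822 CPM in LAIR1KO replicates 1 to 5, against 1976, 1796, 1643, 1679 and 1589 CPM in WT replicates 1 to 5. Of the LAIR1KO libraries 4 lay below every WT library, and replicate 3 was just above WT replicate 5. Its log2 fold change of -0.53 ± 0.16 did not pass (edgeR adjusted p = 0.0640; -0.84 to -0.21 at 2 SE). It passed with DESeq2 (DESeq2 adjusted p = 0.0144), with limma voom (0.0465) and without LAIR1KO replicate 3 (edgeR adjusted p = 0.0129). Without LAIR1KO replicates 4 and 5 the fold change was -0.30 (edgeR adjusted p = 0.151), and Tyrobp passed in 5 of 23 other settings.

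Syk, the kinase that binds phosphorylated ITAMs (ENSMUSG00000021457, GRCm38 chromosome 13, 52583173 to 52648792, plus strand), had another order of libraries. It stood at 456, 384, 380, 556 and 509 CPM in LAIR1KO replicates 1 to 5, against 574, 526, 605, 447 and 609 CPM in WT replicates 1 to 5. LAIR1KO replicates 4 and 5, the lowest libraries for both adaptors, were the highest of their group for Syk. The log2 fold change of -0.27 ± 0.13 did not pass (edgeR adjusted p = 0.227; -0.53 to -0.02 at 2 SE), and without LAIR1KO replicates 4 and 5 it was -0.44 (edgeR adjusted p = 0.0720).

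**Figure D4:**
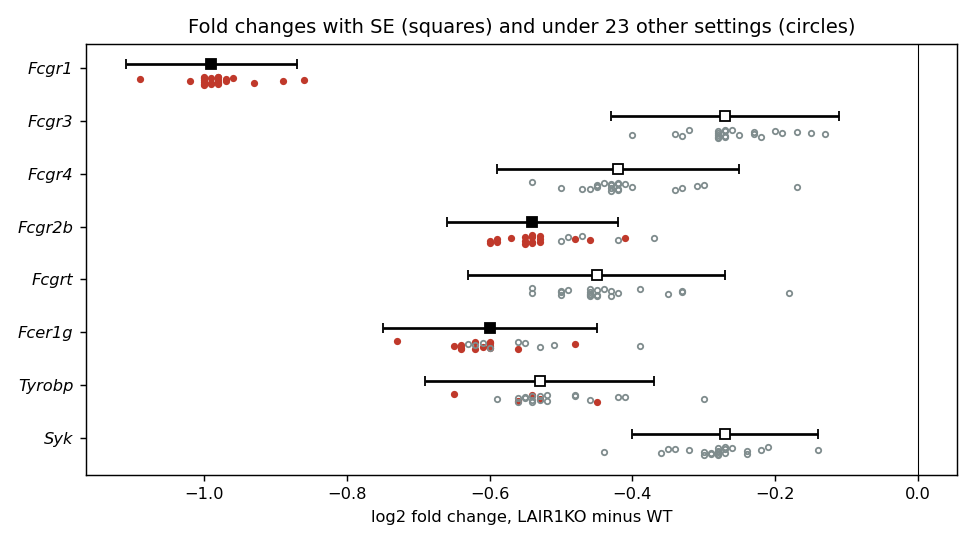
Log2 fold change (LAIR1KO minus WT) of the 8 genes, with squares and SE bars for the edgeR fit and circles for 23 other settings, filled where the adjusted p was under 0.05. All values lie below 0, and Fcgr1 is the gene whose circles are all filled.

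The low values of LAIR1KO replicates 4 and 5 came in the libraries with the most progenitor and the least nonclassical marker RNA. Within the genotypes, Fcer1g, Tyrobp, Fcgr4 and Fcgrt followed the summed nonclassical markers (r = 0.80, 0.78, 0.75 and 0.68). They went against the progenitor markers (r = -0.59, -0.57, -0.64 and -0.65). Syk went the other way (r = -0.50 with the nonclassical and 0.19 with the progenitor markers). Each r is Pearson on deviations from the genotype means over 10 libraries that share depth and scaling, a description. With the summed macrophage markers the same measure was 0.73 for Fcer1g, 0.69 for Tyrobp and 0.59 for Fcgr2b. With the summed B cell markers it was 0.66 for Fcer1g, 0.62 for Tyrobp and -0.68 for Syk. Set against the summed nonclassical markers of the same library, Fcgr1 was at 0.295% to 0.488% in LAIR1KO and 0.533% to 0.681% in WT, and Fcer1g at 20.4% to 26.4% in LAIR1KO and 27.7% to 36.9% in WT, with no overlap for either; 0.445% of all tested genes had every LAIR1KO library below every WT library on this scale. The division moved all genes up by a like amount, to log2 differences of -0.75 for Fcgr1, -0.39 for Fcer1g, -0.32 for Tyrobp, -0.28 for Fcgr2b, -0.25 for Fcgrt, -0.21 for Fcgr4, -0.04 for Fcgr3 and -0.03 for Syk. Fcgr2b, at 2.86% to 4.0% in LAIR1KO and 3.36% to 5.41% in WT, and the other 5 genes overlapped on that scale. The part of other cells in these results was not tested.

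Other genes of the pathway were taken as lists, whose counts stand against these shares of all tested genes. With edgeR 1.68% were lower and 5.11% higher, and with DESeq2 3.86% and 7.62%. At an unadjusted p of 0.05 the shares were 8.92% lower and 12.9% higher. Of 9 tested Fc receptors and partners outside the 8 genes, 1 was lower and 0 higher (median log2 fold change -0.49; with DESeq2 2 lower, and at an unadjusted p of 0.05 3 lower). The gene edgeR called was Fcrl5, an Fc receptor-like protein of B cells, at 3.4 ± 1.76 CPM in LAIR1KO and 13.2 ± 7.5 CPM in WT (edgeR adjusted p = 0.0201, and 0.0571 without LAIR1KO replicates 4 and 5). Fcer1a, the binding chain of the IgE receptor, also named after its values were seen, stayed between 0.312 and 1.53 CPM in LAIR1KO and between 0 and 4.01 CPM in WT. Of 3 tested ITAM and DAP10 adaptors 0 passed with edgeR, 1 was lower with DESeq2 and 1 at an unadjusted p of 0.05 (median -0.39), and the closest was Hcst, which encodes DAP10, at 30.6 ± 6.97 CPM in LAIR1KO and 45.1 ± 7.59 CPM in WT (edgeR adjusted p = 0.0716).

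Of 23 tested receptors that pair with ITAM adaptors or carry a related motif, 2 were lower and 1 was higher (median -0.34, 20 below 0). DESeq2 called 6 lower and 1 higher, and 10 were lower and 1 higher at an unadjusted p of 0.05. Siglech, a DAP12 partner of plasmacytoid dendritic cells, had a log2 fold change of -1.46 ± 0.37 (edgeR adjusted p = 0.0320). Sirpb1a, another DAP12 partner, had one of -0.45 ± 0.12 (edgeR adjusted p = 0.0438). Lilra6, a gene of the paired immunoglobulin-like receptors, was higher at 8.72 ± 2.69 CPM in LAIR1KO, against 4.40 ± 1.45 CPM in WT (edgeR adjusted p = 0.0498), and starts 0.0951 Mb from the start of Lair1. Leaving out 1 library ended these calls in 6, 9 and 8 of 10 cases, and Sirpb1a and Lilra6 have close relatives with which reads could be shared.

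Downstream, 0 of 9 Src family and proximal kinases passed with edgeR or DESeq2, and 1 was lower at an unadjusted p of 0.05 (median -0.14). Lyn, the Src family kinase that acts on both ITAMs and ITIMs, had the smallest p, at 616 ± 94.5 CPM in LAIR1KO and 731 ± 33.1 CPM in WT (edgeR adjusted p = 0.193). Of 28 tested genes downstream of Syk 1 was lower and 0 higher (median -0.18; with DESeq2 3 lower, and at an unadjusted p of 0.05 8 lower), the adaptor Blnk at 3.4 ± 0.194 CPM in LAIR1KO and 7.69 ± 2.24 CPM in WT (edgeR adjusted p = 0.00993, and 0.0656 without LAIR1KO replicates 4 and 5). Among 22 negative regulators of ITAM signalling 2 were lower and 1 higher, and the 2 include Lair1 itself (median of the others -0.23). DESeq2 also called 2 lower and 1 higher, and 10 were lower and 1 higher at an unadjusted p of 0.05. The ITIM lectin Clec4a2 was at 13.4 ± 2.38 CPM in LAIR1KO and 29.8 ± 6.23 CPM in WT (edgeR adjusted p = 0.00188). Ubash3a, a phosphatase-like protein best known from T cells, rose to 13.8 ± 5.37 CPM in LAIR1KO, against 3.11 ± 1.44 CPM in WT (edgeR adjusted p = 0.00393). All 6 of these lists had medians below the 0.00 of all tested genes. So did the markers of nonclassical monocytes (-0.25), B cells (-0.28), dendritic cells (-0.61) and macrophages (-1.64). The medians of the other marker lists lay above 0, from 0.03 for neutrophils to 2.20 for progenitors.

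The genes most like the 3 that fell, by Pearson correlation of deviations from the genotype means over 10 libraries among 10155 genes, were different for each. For Fcer1g the first was Tyrobp (r = 0.99), followed by Hsbp1, Polr2g, Ear2 and Cd300c2 (r = 0.99 to 0.98). For Fcgr2b they were Dok2, Mindy1, Bach1, Sf3b4 and Cstb (r = 0.93 to 0.91). For Fcgr1 they were Gstm4, Slx4ip, Pip4k2b, Eif4a-ps4 and Slc37a4 (r = 0.93 to 0.86). Of these 15 genes only Gstm4 passed the test between genotypes, with a log2 fold change of -0.58 ± 0.16 (edgeR adjusted p = 0.0479). Each r was picked as among the highest of 10155 over only 10 libraries. Unrelated genes can reach high values under such a choice, and no r was tested.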

How the data were processed

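The deposited file holds read counts per Ensembl gene that the authors had not normalized. GSNAP and GRCm38.p5 are named in the submitters' processing notes; for the counting tool, annotation release, strand setting and read length the entry is not given in the sources used here. Columns carry an identifier that also stands in the sample titles, and 0 columns were left over. GENCODE M21 on GRCm38 named 52489 of 52636 genes and gave exon lengths. Start regions came from RefSeq on GRCm38.p6, which held 7 of the 8 members.

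The fit used edgeR 4.0.16 under R 4.3.3, the filterByExpr function on the 2 groups (at least 10 counts, 15 in total), TMM scaling and the quasi-likelihood test with no covariate. Benjamini-Hochberg adjustment ran over 13469 genes, with a threshold of 0.05. Fold changes are LAIR1KO minus WT, and each SE is derived from its F statistic. CPM uses TMM-scaled library sizes. Ratios add 0.5 to each count and use a two-sided exact permutation test over 252 splits. The chi-square per degree of freedom between libraries of a group was at least 15.6, so none repeated another. On counts simulated for LAIR1KO against WT with 13205 genes in the fit, recovery was 23.9% at 1.5-fold, 64.2% at 2-fold and 97.0% at 4-fold.

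Members, gene lists and tests were chosen with earlier results of these data known. Genes named were the members, Lair1, up to 4 members of each pathway list past the threshold or else the 1 with the smallest p, the most abundant gene of each marker list, genes bearing on how reads are assigned, and for each member that passed the 5 genes of most like pattern averaging 1 or more in log2 CPM (predicted genes left out). B2m and Fcer1a were named outside this rule, after their values were seen. Alternatives included DESeq2 1.42.0 and limma 3.58.1.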

Additional observations from a re-analysis of the deposited data

How the results depend on the processing

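The directions of all 8 fold changes held in the 23 other settings tried, and the calls of Fcgr1 (log2 fold change -1.09 to -0.86, adjusted p up to 0.0117) and Lair1 held in all of them. With 1 library left out, between 1 and 4 of the 8 genes passed, Fcgr2b ranged from -0.60 to -0.47, Fcer1g from -0.73 to -0.51 and Tyrobp from -0.65 to -0.42. Without LAIR1KO replicates 4 and 5 together 1 member passed (Fcgr2b -0.42, adjusted p = 0.112; Fcer1g -0.39), as it did without WT replicates 1 and 4 (Fcgr2b -0.37; Fcer1g -0.55, adjusted p = 0.152). Tyrobp passed with DESeq2 (-0.54), limma voom (-0.56), limma voom with library quality weights (-0.53, adjusted p = 0.0281) and the GC and length trend removed (-0.45, adjusted p = 0.0453). The count of changed genes, 914, was 1379 with library totals, 1516 with DESeq2, 376 and 338 without the same pairs, and 535 to 1170 with 1 library left out. Library totals moved the median of all genes to 0.13 and the share of calls that were higher in LAIR1KO to 90.1%, against 75.3% with TMM, and 3 members passed as with TMM. The count of pathway genes that passed, 8, was 16 with DESeq2, 13 with the GC and length trend removed, 4 without either pair, and 4 to 20 with 1 library left out.

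Same-numbered libraries showed no shared deviation: their deviations correlated at -0.08 to 0.05, and 0 of 10 libraries were closest to their own number. The labels do not say whether same-numbered libraries were handled together, and these values cannot decide it. With the number as a block 600 genes and 3 members passed, and the ratio of Fcgr1 to Fcgr2b (-0.47) had an exact sign-flip permutation p of 0.0625, the smallest that test can give. That ratio was -0.49 without LAIR1KO replicates 4 and 5 (two-sided exact permutation p = 0.0536) and -0.55 to -0.40 with 1 library left out. With 1 library left out the ratio of Fcgr3 to Fcgr2b ranged from 0.19 to 0.32. Its exact permutation p ran from 0.0317 to 0.143, and was under 0.05 only without LAIR1KO replicate 2. With the number as a block its exact sign-flip permutation p was 0.25. The ratio of Fcgr4 to Fcgr2b ranged from -0.03 to 0.15 with 1 library left out. It was -0.03 without LAIR1KO replicate 3, -0.01 without WT replicate 1 and -0.08 without WT replicates 1 and 4. The cause of these shifts was not tested.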

Other observations

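The make-up of the IgG receptor transcripts was dominated by Fcgr4 and Fcgr3 in both genotypes. In CPM per kilobase, Fcgr4 made up 56.1% ± 4.18 of the 4 receptors in LAIR1KO and 58.1% ± 2.52 in WT (SD, n = 5 each). Fcgr3 made up 37.3% ± 3.88 in LAIR1KO and 34.2% ± 2.04 in WT, and Fcgr2b 5.25% ± 0.723 in LAIR1KO and 5.72% ± 0.753 in WT. Fcgr1 made up 0.963% to 1.68% in LAIR1KO and 1.64% to 2.23% in WT, ranges that overlap at their ends. These shares depend on the annotated exon length, 5.79 kb for Fcgr2b, 1.74 kb for Fcgr3 and 1.26 kb for Fcgr4. In CPM, not divided by length, Fcgr2b averaged 286 in LAIR1KO and 414 in WT, and Fcgr3 619 and 748 in the same groups.

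The balance of the ITAM adaptors was narrow. Fcer1g stood at 1.22 to 1.32 times Tyrobp in the LAIR1KO libraries and 1.29 to 1.36 times in the WT libraries, in CPM per kilobase. Fcer1g relative to the summed activating receptors was 2.48 ± 0.182 in LAIR1KO and 2.96 ± 0.512 in WT, with overlapping ranges. These ratios are descriptions and were not tested.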
